A study of Mus musculus with 4 samples.

Results

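Nuclei that carried transcripts of *Meis2* and of the GABA-synthesizing enzymes, and few or none of 4 genes that mark other inhibitory lineages, were examined in single-nucleus RNA sequencing data of the medial neocortex of mouse embryos at E16.5. A nucleus was included when it had at least 5 transcripts of *Meis2* and at least 2 of *Gad1* and *Gad2* together. It further had no transcript of *Ebf1* or *Lhx6*, at most 1 of *Nxph1*, at most 4 of *Adarb2*, and at most 1 of *Mki67* and *Top2a* together. Among 29656 nuclei with 1500 to 60000 transcripts, 278 met this rule, and they are called *Meis2*+ *Gad*+ nuclei here. The counts of these 9 genes chose the nuclei, so their levels are given as a description and were not tested.

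The study compared mice whose *Sst*-expressing neurons lack *Dnmt1*, the gene of the maintenance DNA methyltransferase, with control mice. Control embryos were *Sst-Cre/tdTomato*, and Dnmt1 KO embryos were *Sst-Cre/tdTomato/Dnmt1 loxP2*. Cre is expressed where *Sst* is, and both genotypes carry it with the tdTomato reporter, so that deletion is directed to cells that have expressed *Sst*. Each genotype was represented by 2 libraries, which the labels number as replicates. The labels place control replicate 2 in batch 2 and the other 3 libraries in batch 1. By their barcodes, control replicate 2 held 2 sublibraries and the other 3 libraries 8 each.

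MEIS2 is a TALE-class homeodomain transcription factor. In the ventral telencephalon it is made in the lateral ganglionic eminence (LGE), whose neurons become projection neurons of the striatum, intercalated cells of the amygdala and interneurons of the olfactory bulb. The cortex also contains *Meis2* in excitatory neurons, whereas most cortical interneurons come from the medial (MGE) and caudal (CGE) ganglionic eminences and are marked by *Lhx6* and by *Adarb2*. In the striatum, EBF1 and ISL1 are transcription factors of direct-pathway neurons, and SIX3 and SP9 are transcription factors needed for indirect-pathway neurons, which carry the dopamine receptor DRD2.

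The 4 libraries held between 96455278 and 201141704 transcripts, and between 4905 and 12064 of their barcodes were retained. The median was 12274 to 12401 transcripts per nucleus in batch 1 and 21140 in control replicate 2, and no barcode was shared between libraries. All retained nuclei included 1727 MGE nuclei (at least 2 *Lhx6* transcripts), 234 striatal nuclei (at least 2 *Ebf1* transcripts) and 674 CGE nuclei (at least 5 *Adarb2* transcripts), each with the same limits on *Gad* and cycling genes and with no nucleus in more than 1 of them. These names state the gene that chose the nuclei.

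*Meis2*+ *Gad*+ nuclei were unevenly spread over the libraries. There were 9 among 5640 nuclei of Dnmt1 KO replicate 1, which is 0.160% (exact binomial 95% interval 0.0730 to 0.303%). Dnmt1 KO replicate 2 held 75 among 12064 nuclei, or 0.622% (0.489 to 0.779%). Control replicate 1 held 182 among 7047 nuclei, or 2.58% (2.22 to 2.98%). Control replicate 2 held 12 among 4905 nuclei, or 0.245% (0.126 to 0.427%). Control replicate 1 was thus far above the other libraries, and the intervals, which cover counting error only, did not overlap between control replicate 1 and any other library. The Dnmt1 KO libraries averaged 0.391% ± 0.327 (SD, n = 2). The control libraries averaged 1.41% ± 1.65 (SD, n = 2), so that Dnmt1 KO minus control was -1.02 points (exact permutation test, two-sided p = 0.667, where the smallest p that 2 against 2 libraries allow is 0.333). Control replicate 2 lay between the Dnmt1 KO libraries here but was the lowest library at 0.0408% against 0.0709 and 0.431% in the Dnmt1 KO libraries with at least 5 *Gad* transcripts required, and at 0.0815% against 0.0887 and 0.481% with nuclei that had at least 2 *Neurod2* and *Neurod6* transcripts left out. As a share of all non-cycling *Gad*+ nuclei, the *Meis2*+ *Gad*+ nuclei made up 2.68%, 4.76%, 14.4% and 2.59% in the same order of libraries, with control replicate 2 again lowest, and Dnmt1 KO minus control was -4.77 points (exact permutation test, two-sided p = 1.00). Without control replicate 1 the difference in the share of all retained nuclei was 0.146 points, with the opposite sign. Within batch 1, with control replicate 1 as the single control, it was -2.19 points, and batch 2 holds 1 control library only. The striatal nuclei had a like distribution, with 2, 55, 175 and 2 nuclei in the same order of libraries, while MGE nuclei numbered 211, 734, 437 and 345.

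**Figure D1:**
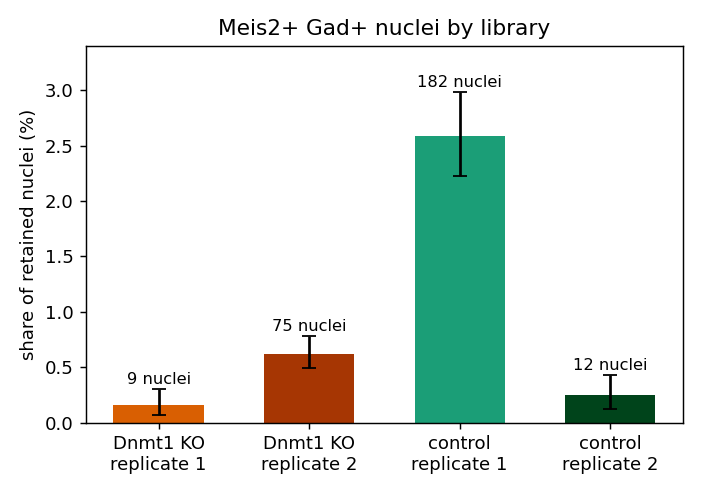
Share of retained nuclei (percent, y axis) that met the rule for *Meis2*+ *Gad*+ nuclei in each library (x axis), as bars with exact binomial 95% intervals and the number of nuclei above each bar. Control replicate 1 stands at 2.58% and the other 3 libraries between 0.160% and 0.622%.

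The levels of the genes that chose the nuclei differed between the libraries as well. The median nucleus held 63 *Meis2* transcripts (quartiles 33 and 97.75, highest 211) and 11 *Gad1* and *Gad2* transcripts (highest 61). By library, the median *Meis2* count was 19, 48, 66.5 and 24.5 and the median *Gad* count 4, 9, 12.5 and 2 in the same order of libraries. The 2 libraries with few such nuclei therefore held nuclei nearer to the limits of the rule. Just inside the *Meis2* limit, at 5 or 6 transcripts, lay 9 nuclei, of which 5 had at least 2 transcripts of the excitatory genes *Neurod2* and *Neurod6* together. Just outside it, at 3 or 4 transcripts, lay 10 nuclei that met the rest of the rule.

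*Meis2* alone did not single out inhibitory nuclei in this tissue. At least 5 *Meis2* transcripts were found in 20180 retained nuclei, and 88.6% of these had no *Gad1* or *Gad2* transcript. Conversely, among 6700 nuclei with at least 5 *Neurod2* and *Neurod6* transcripts, 261 had at least 2 *Gad* transcripts, a share of 1.39%, 4.75%, 6.23% and 2.90% in the same order of libraries. The rule thus admits some nuclei with the marks of excitatory neurons.

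The nuclei were checked against the markers of the LGE lineage and of its olfactory bulb interneurons. *Sp8*, a zinc finger transcription factor of LGE-derived olfactory bulb interneurons that is also made in the CGE, was detected in 12 of 278 *Meis2*+ *Gad*+ nuclei (4.32%), with 5 in Dnmt1 KO replicate 2, 7 in control replicate 1 and 0 in the others. It was found in 122 of 674 CGE nuclei (18.1%), 8 of 1727 MGE nuclei (0.463%) and 19 of 5707 excitatory nuclei (0.333%), the last defined by at least 5 *Neurod2* and *Neurod6* transcripts and no *Gad* transcript. After thinning of each nucleus to 5000 transcripts, which left out 33 of the 278 as shallower (1, 10, 20 and 2 by library), *Sp8* remained in 3 of 245 nuclei (1.22%). All 10 genes of the LGE list had a transcript in at least 1 of the 278 nuclei, and by library they summed to 261 to 1261 CPM (transcripts relative to all transcripts summed over those nuclei), against 191 to 307 CPM in MGE, 1235 to 4811 CPM in striatal and 1792 to 2770 CPM in CGE nuclei. The striatal sums of Dnmt1 KO replicate 1 (1429 CPM) and control replicate 2 (4811 CPM) came from 2 nuclei each. In Dnmt1 KO replicate 2 and control replicate 1 the striatal sums were 1237 and 1235 CPM, against 940 and 1261 CPM in *Meis2*+ *Gad*+ nuclei. Of the 10 olfactory bulb genes, 8 had a transcript, with sums of 12.04 to 94.5 CPM against 35.1 to 112 CPM in MGE and 66.7 to 107 CPM in CGE nuclei, and *Th* (tyrosine hydroxylase) and *Scgn* (secretagogin) were at 0. Of 9 genes of the MGE list, 6 had a transcript, with sums of 568 to 1159 CPM against 4230 to 5362 CPM in MGE nuclei, and *Sst*, *Nkx2-1* and *Lhx8* were at 0. Of 9 genes of the CGE list, 7 had a transcript, with sums of 175 to 542 CPM against 601 to 1404 CPM in CGE nuclei, and *Htr3a* and *Vip* were at 0. These zeros say little where the gene is rare in its own population, as *Nkx2-1* was detected in 0.290 to 1.83% and *Sst* in 5.21 to 11.2% of MGE nuclei by library. *Sp8* itself was thus not found in most of these nuclei, and they are named by their rule.

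*Drd2*, *Six3* and *Sp9*, 3 genes of striatal indirect-pathway neurons that the rule did not use, were each found in part of these nuclei. They do not form a list of their own, as *Sp9* is on the LGE list. Among the genes named, they have the 3 largest increases over striatal nuclei, so their detection is a description of these data. Of the 13 striatal genes outside the rule, *Tac1* and *Ikzf1* were at 0 in these nuclei. *Drd2* was detected in 98 of the 278 nuclei (35.3%), *Six3* in 96 (34.5%) and *Sp9* in 121 (43.5%). At least 1 of the 3 genes was found in 170 nuclei (61.2%), and all 3 in 39, shares that were not counted in the other populations. After thinning to 5000 transcripts the counts were 80, 69 and 80 of 245. *Drd2* was detected in only 0.811% of MGE, 2.14% of striatal, 1.34% of CGE and 0.350% of excitatory nuclei, whose median depths by library were 9116.5 to 25796 transcripts against 8394.5 to 19734.5 in *Meis2*+ *Gad*+ nuclei. *Meis2*+ *Gad*+ nuclei made up 98 of the 143 non-cycling *Gad*+ nuclei with *Drd2* (68.5%), 96 of the 178 with *Six3* (53.9%) and 121 of the 1232 with *Sp9* (9.82%). *Sp9* was thus shared with the interneuron populations, being found in 40.3% of MGE and 26.0% of CGE nuclei. By library, at least 1 of the 3 genes was present in 1 of 9, 42 of 75, 126 of 182 and 1 of 12 nuclei, so that these nuclei came almost entirely from Dnmt1 KO replicate 2 and control replicate 1.

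The start regions of these 3 genes are shown because these genes had the detection just described and rose in the comparison with striatal nuclei that follows. Each runs from 250 bases before to 50 bases after the annotated start, on the plus strand, as given by RefSeq for GRCm38.p6, and the capitals mark matches to 3 short motifs searched on both strands. The MEIS core was searched as TGACAG, the CCAAT box by the letters of its name, and the GC box as GGGCGG, each with its reverse complement, and no match overlapped another. *Drd2* (chr9:49340153-49340452) has a GC content of 70.3% and 2 GC boxes. *Six3* (chr17:85620584-85620883) has a GC content of 50.0%, with 1 MEIS core and 3 CCAAT boxes. *Sp9* (chr2:73271676-73271975) has a GC content of 63.7%, with 2 CCAAT boxes and 1 GC box. Among all 32851 promoter windows of this length, 19.2% hold the MEIS core, 37.4% the CCAAT box and 35.7% the GC box, so that matches are common and describe the letters only. On GRCm39, the build of the counts, the protein-coding genes lie on the plus strand at chr9:49251654-49319477 (*Drd2*), chr17:85920640-85936730 (*Six3*) and chr2:73102269-73115050 (*Sp9*), and *Meis2* lies on the minus strand at chr2:115693062-115896341.
Drd2: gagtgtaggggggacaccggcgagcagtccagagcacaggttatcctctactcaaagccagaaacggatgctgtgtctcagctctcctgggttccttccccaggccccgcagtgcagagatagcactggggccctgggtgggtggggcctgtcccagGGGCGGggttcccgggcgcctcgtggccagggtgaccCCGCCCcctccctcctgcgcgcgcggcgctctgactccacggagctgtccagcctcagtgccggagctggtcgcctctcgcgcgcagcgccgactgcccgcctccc
Six3: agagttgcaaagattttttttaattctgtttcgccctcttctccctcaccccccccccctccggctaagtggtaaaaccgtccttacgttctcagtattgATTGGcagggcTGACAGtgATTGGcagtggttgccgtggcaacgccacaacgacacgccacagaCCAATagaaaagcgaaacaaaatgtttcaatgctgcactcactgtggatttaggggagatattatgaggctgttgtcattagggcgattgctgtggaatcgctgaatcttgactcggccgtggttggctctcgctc
Sp9: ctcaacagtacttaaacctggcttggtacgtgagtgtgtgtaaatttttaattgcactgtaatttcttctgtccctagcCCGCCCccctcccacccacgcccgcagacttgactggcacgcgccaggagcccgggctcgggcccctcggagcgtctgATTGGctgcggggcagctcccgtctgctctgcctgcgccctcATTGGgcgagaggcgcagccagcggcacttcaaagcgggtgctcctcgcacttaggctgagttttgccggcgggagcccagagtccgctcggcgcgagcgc

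The *Meis2*+ *Gad*+ nuclei were not uniform among themselves. With 5 or more *Gad* transcripts there were 203 nuclei, of which 158 (77.8%) had *Drd2*, *Six3* or *Sp9* and 17 (8.37%) had at least 2 *Neurod2* and *Neurod6* transcripts. With 2 to 4 *Gad* transcripts there were 75 nuclei. Of these, 12 had *Drd2*, *Six3* or *Sp9*, and 39 (52.0%) had at least 2 *Neurod2* and *Neurod6* transcripts. Summed over these classes, *Drd2* stood at 315 CPM in the class with more *Gad* and 31.5 CPM in the class with less, and *Rarb*, which encodes a retinoic acid receptor of striatal neurons, at 550 and 65.9 CPM. *Egfr*, the receptor of epidermal growth factor, stood at 7.15 and 133 CPM. The class with less *Gad* made up 5 of 9, 23 of 75, 37 of 182 and 10 of 12 nuclei in the same order of libraries. Nuclei with at least 2 *Neurod2* and *Neurod6* transcripts numbered 56 (4, 17, 27 and 8 by library) and had a median of 19830.5 transcripts, against 7996 for the other 222. In 66 nuclei none of *Drd2*, *Six3* and *Sp9* was found, and *Neurod2* and *Neurod6* stayed below this limit.

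**Figure D2:**
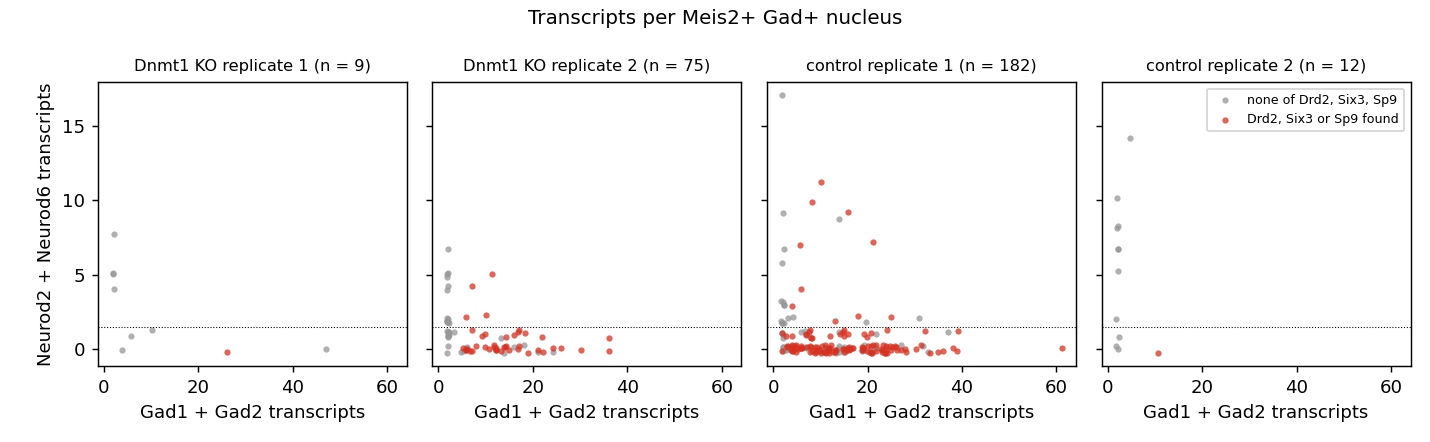
Transcripts of *Gad1* and *Gad2* (x axis) against transcripts of *Neurod2* and *Neurod6* (y axis) in each *Meis2*+ *Gad*+ nucleus, 1 panel per library, with small random offsets against overplotting and a dotted line at the limit of 2 *Neurod* transcripts. Nuclei with *Drd2*, *Six3* or *Sp9* (red) lie mostly at higher *Gad* and below the line in Dnmt1 KO replicate 2 and control replicate 1, and there is 1 such nucleus each in Dnmt1 KO replicate 1 and control replicate 2.

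Among the 170 nuclei with *Drd2*, *Six3* or *Sp9*, several further genes were frequent, but other populations carried them too. *Foxp1*, a forkhead factor of striatal and cortical projection neurons, was detected in 155 and *Bcl11b* (CTIP2) in 165. *Meis1*, the TALE relative of *Meis2*, was detected in 149. *Foxp1* was also found in 74.9% of MGE and 97.1% of excitatory nuclei, and *Bcl11b* in 84.2% and 75.7%. *Meis1* was found in 285 of 1727 MGE nuclei, 53.0% of CGE and 69.7% of striatal nuclei. Detection of *Foxp1* or *Bcl11b* alone therefore does not mark a nucleus as striatal. The neuropeptide gene *Penk* (proenkephalin) was found in 13 of the 278 nuclei, and 12 of these 13 had *Drd2*, *Six3* or *Sp9*. *Isl1* followed another pattern. It was detected in 27 nuclei, 26 of them in control replicate 1 and 1 in Dnmt1 KO replicate 1. Only 2 of the 27 had *Drd2* and 8 had any of the 3 genes, whereas 26 of the 27 had *Pbx3*, a homeodomain partner of MEIS proteins. *Pbx3* was detected in 55.4% of all 278 nuclei, 91.0% of striatal and 74.5% of CGE nuclei. All these counts rest on the transcripts found in a nucleus, and a gene not found may still be expressed.

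The first population comparison asked how these nuclei differed from the *Ebf1*-bearing striatal nuclei. Counts were summed per library and population, and only Dnmt1 KO replicate 2 and control replicate 1 held 10 or more nuclei of both, so the test rests on 2 libraries. *Drd2* stood at 166 and 287 CPM in *Meis2*+ *Gad*+ nuclei of these libraries and at 2.40 and 6.77 CPM in striatal nuclei. *Six3* stood at 59.0 and 96.3 CPM against 1.20 and 3.99 CPM. *Sp9* stood at 85.0 and 115 CPM against 4.79 and 5.58 CPM. In striatal nuclei of Dnmt1 KO replicate 2, *Drd2* and *Six3* lay under a floor of 3 transcripts (3.59 CPM), so their levels there are imprecise. In each library, all 3 genes were more than 10-fold higher in the *Meis2*+ *Gad*+ nuclei. Nuclei with *Ebf1* had been excluded from one side and required on the other, so that genes that accompany *Ebf1* or are absent where it is present cannot be told apart from this choice. The log2 fold changes were 5.47 (SE 0.292) for *Drd2*, 4.68 (SE 0.376) for *Six3* and 4.21 (SE 0.294) for *Sp9*, with adjusted p of 0.0318, 0.0346 and 0.0341 in edgeR's quasi-likelihood test with the library as a block. They were among 9 genes that rose (0.0992% of the 9073 tested) and 12 that fell (0.132%), 0.231% in all. None of these calls was kept with doublets left out or without the library block. Without TMM scaling 22 rose and 60 fell.

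The other genes that were higher than in striatal nuclei included *Grik3*, a kainate receptor subunit (1113 and 1756 CPM in the *Meis2*+ *Gad*+ nuclei, 174 and 220 CPM in the striatal nuclei, and an increase of 2.79 on the log2 scale). *Chrm2*, a muscarinic receptor, rose by 2.29, *Gucy1a1*, a subunit of the nitric oxide receptor, by 2.96, and *Ikzf2*, a zinc finger factor, by 2.58 on the log2 scale. Its relative *Ikzf1*, a transcription factor of striatal neurons, was at 0 in all *Meis2*+ *Gad*+ nuclei and at 206 and 440 CPM in striatal nuclei. Set against a floor of 3 transcripts over both libraries, it was at least 350-fold lower. *Mecom*, *Fli1*, *Cyyr1* and *Dlc1*, of which *Fli1* and *Mecom* encode transcription factors active in blood and endothelial cells, were lower as well, but their levels in striatal nuclei were uneven. In these nuclei *Mecom* reached 1078 CPM in Dnmt1 KO replicate 2 but 31.1 CPM in control replicate 1, with 3 transcripts in all *Meis2*+ *Gad*+ nuclei of these libraries, and *Fli1* at 268 and 8.77 CPM, with 0 transcripts in the *Meis2*+ *Gad*+ nuclei, at least 67.4-fold lower against the same floor. The 13 markers of glia and non-neural cells summed to 332 and 10.8 CPM in the striatal nuclei of the same libraries, with *Olig1* and *C1qa* at 0, and to 33.1 and 15.3 CPM in the *Meis2*+ *Gad*+ nuclei. Their part in these results was not tested.

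Several striatal genes did not pass the test in this comparison. *Rarb* stood at 309 and 497 CPM in *Meis2*+ *Gad*+ nuclei and 662 and 2195 CPM in striatal nuclei, a log2 difference of -1.68 (adjusted p = 0.216, edgeR). *Isl1* stood at 0 and 43.1 CPM against 85.0 and 262 CPM (adjusted p = 0.194, edgeR). *Foxp1* overlapped between the populations, with 2885 and 3352 CPM against 1668 and 3330 CPM (log2 difference 0.35, adjusted p = 0.941, edgeR). *Meis1* was 1.21 higher (adjusted p = 0.216, edgeR). Of the 13 striatal genes listed, 9 could be tested, of which *Drd2* and *Six3* rose and *Ikzf1* fell, with a median log2 difference of 0.11 against 0.01 over all genes. Of all genes tested, 0.0992% rose and 0.132% fell. *Drd2* and *Six3* had few transcripts in striatal nuclei, and *Ikzf1* had none in *Meis2*+ *Gad*+ nuclei. Such genes can pass the filter on low counts only through the other population. The counts and the median of this list therefore follow in part from that filter. Every call of this comparison was lost when doublets were left out, and again without the library block, both of which gave 0 genes past the threshold, while *Drd2* stayed at 5.58 and 5.33 on the log2 scale.

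**Figure D3:**
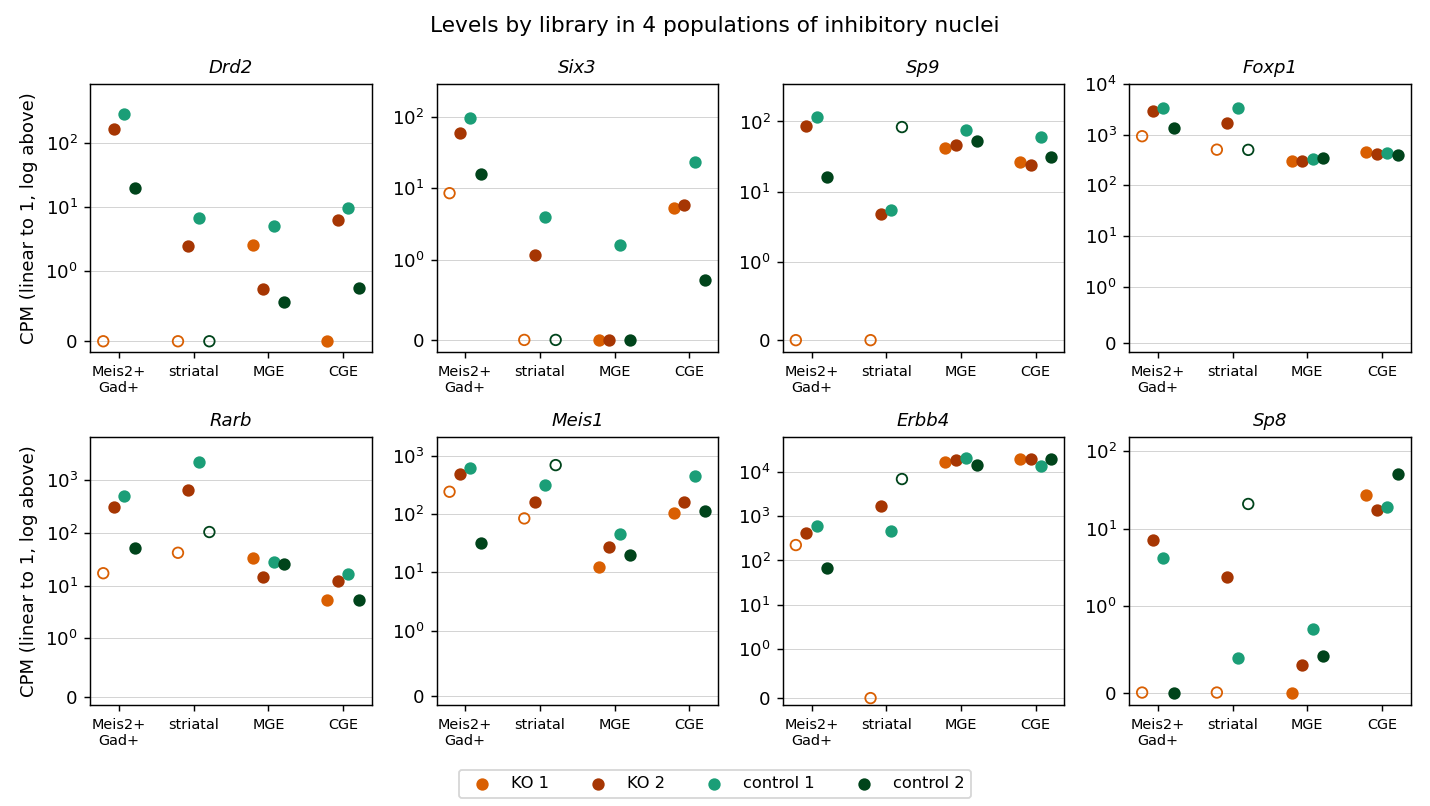
Levels of 8 genes (CPM, y axis linear to 1 and logarithmic above) in *Meis2*+ *Gad*+, striatal, MGE and CGE nuclei (x axis), with 1 point per library coloured by library and open points for sums over fewer than 10 nuclei. *Drd2* and *Six3* are highest in *Meis2*+ *Gad*+ nuclei of Dnmt1 KO replicate 2 and control replicate 1, and over all 4 libraries *Erbb4* is at 68.2 to 601 CPM in *Meis2*+ *Gad*+ nuclei against 14671 to 20379 CPM in MGE nuclei.

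The second comparison set the nuclei against MGE nuclei, the source of *Sst* interneurons, in all 4 libraries. *Foxp1* stood at 928, 2885, 3352 and 1348 CPM by library in *Meis2*+ *Gad*+ nuclei, from Dnmt1 KO replicate 1 to control replicate 2, and at 297, 305, 328 and 344 CPM in MGE nuclei. *Meis1* stood at 240, 483, 618 and 32.1 CPM, against 12.2, 26.9, 45.9 and 19.6 CPM. *Erbb4*, the neuregulin receptor of migrating interneurons, stood at 223, 417, 601 and 68.2 CPM against 17228, 18744, 20379 and 14671 CPM. The populations did not overlap in *Foxp1* or *Erbb4*, while the *Meis1* level of control replicate 2 lay within the MGE range. The log2 fold changes were 2.43 (SE 0.328, adjusted p = 0.00162, edgeR) for *Foxp1*, 3.35 (SE 0.448, adjusted p = 0.00155) for *Meis1* and -6.16 (SE 0.481, adjusted p = 0.000109) for *Erbb4*. In all, 443 genes rose (4.46% of the 9937 tested) and 411 fell (4.14%), 8.59% in all. Without TMM scaling, 568 rose and 333 fell, as the median log2 fold change of all genes moved from -0.02 to 0.12.

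The striatal genes *Drd2*, *Six3*, *Rarb*, *Foxp1* and *Bcl11b* were higher than in MGE nuclei. They are the 5 of 13 listed genes that had enough counts for the test, and the other 8 were not tested. The 13 genes summed to 1589, 4237, 5901 and 2018 CPM in *Meis2*+ *Gad*+ nuclei by library, and to 1255 to 1460 CPM in excitatory nuclei. *Foxp1* stood at 1424 CPM in the 56 *Meis2*+ *Gad*+ nuclei with at least 2 *Neurod2* and *Neurod6* transcripts, and at 3879 CPM in the other 222. A gene that is near 0 in one population can pass the filter on low counts only through the other, and *Drd2* and *Six3* were near 0 in MGE nuclei, so that the counts and medians over tested genes of a list follow in part from the filter. *Drd2* stood at 0, 166, 287 and 20.1 CPM in *Meis2*+ *Gad*+ nuclei, whereas MGE nuclei held 2.51, 0.744, 4.94 and 0.560 CPM. It was higher in 3 of 4 libraries, with an increase of 5.86 on the log2 scale (SE 0.63, adjusted p = 0.000441, edgeR). The 0 of Dnmt1 KO replicate 1 came from 116432 transcripts in 9 nuclei, which allow a level of up to 25.8 CPM. *Six3* stood at 8.59, 59.0, 96.3 and 16.05 CPM against 1.65 CPM in control replicate 1 and 0 in the other libraries (log2 fold change 6.84, SE 0.609). The *Six3* level of Dnmt1 KO replicate 1 came from 1 transcript and lay under the floor of 25.8 CPM. In control replicate 2, 1 of the 12 nuclei held all 4 *Six3* and all 5 *Drd2* transcripts. *Rarb* at 17.2, 309, 497 and 52.2 CPM was above MGE nuclei (14.6 to 33.4 CPM) in all libraries but Dnmt1 KO replicate 1, and its call (adjusted p = 0.0300, edgeR) was lost without Dnmt1 KO replicate 2, without control replicate 1 and with doublets left out. *Bcl11b* rose by 1.15, a call that was likewise lost without either of these 2 libraries. The LGE list had 6 of 10 genes tested, of which *Pbx3* (3.16) and the homeodomain factor *Pax6* (2.49) rose. Among 8 genes tested of the TALE class, to which *Meis2* belongs, *Meis1* and *Pbx3* rose and *Pknox2* fell. *Meis2* was required of the *Meis2*+ *Gad*+ nuclei but not of MGE, striatal or CGE nuclei. In each comparison, genes that accompany *Meis2* therefore cannot be told apart from this choice. The retinoic acid list had 5 of 14 genes tested, and *Rarb* alone passed.

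The genes with the largest increases over MGE nuclei included 2 large zinc finger homeobox genes. *Zfhx3* stood at 249, 1714, 2104 and 253 CPM against 5.74 to 25.8 CPM (log2 fold change 5.96, adjusted p = 1.75e-05, edgeR), and *Zfhx4* rose by 4.00. *Six3os1*, an RNA transcribed opposite to *Six3*, rose by 6.81, with 137, 73.2, 162 and 52.2 CPM against at most 2.56 CPM, and since the strand used in counting was not given, its reads and those of *Six3* may not be fully separate. *Tmcc3* rose by 4.80, *Rmst*, a long noncoding RNA, by 3.76, *Nedd9*, an adhesion scaffold, by 3.69, *Pde7b*, a cAMP phosphodiesterase, by 3.43, and *Dach2* by 3.33. *Egfr* rose by 4.64, with its highest level of 129 CPM in Dnmt1 KO replicate 1 and its lowest of 18.4 CPM in control replicate 1. These levels came from 11 of the 278 nuclei (2, 5, 3 and 1 by library), and in Dnmt1 KO replicate 1 the 1 nucleus with *Six3* held *Egfr* at 918 CPM. Genes of the amygdala intercalated cells gave a mixed count, with *Pbx3*, *Adra1a* and *Foxp2* higher and *Erbb4* lower among 6 tested.

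Genes of cortical interneurons were lower than in MGE nuclei, in a comparison in which 4.14% of all genes tested fell. All 6 tested genes of the MGE list fell, among them *Maf* (-6.43), *Satb1* (-3.35) and *Sox6* (-2.53), transcription factors of MGE interneuron development. Nuclei with *Lhx6* had been excluded from one side and required on the other, so that genes that accompany *Lhx6* cannot be told apart from this choice. *Npas1*, a transcription factor of interneurons, had the largest fitted decrease among the genes named here (-7.30), which rests on 1 transcript in all *Meis2*+ *Gad*+ nuclei against 31.4 to 119 CPM in MGE nuclei. Further large decreases were those of *Cntnap3* (-7.12), a contactin-associated protein, *Nxph2* (-6.99), a neurexin ligand, *Cntnap5c* (-6.72), *Cacng3* (-6.20), an auxiliary subunit of AMPA receptors, *Dgkg* (-6.08), *Syndig1* (-5.73) and *Elfn1* (-5.60), both proteins of excitatory synapses. Of 8 genes common to GABAergic neurons, 4 fell and none rose, and those that fell included the homeodomain factors *Dlx2* (-1.90) and *Dlx1* (-1.27). The 8 genes summed to 292, 1678, 1728 and 285 CPM in *Meis2*+ *Gad*+ nuclei and to 1870, 1945, 2506 and 1767 CPM in MGE nuclei, so that the sums were furthest apart in the 2 libraries with few *Meis2*+ *Gad*+ nuclei. The calls of *Dlx1* and *Dlx2* were lost without Dnmt1 KO replicate 2, without control replicate 1, and when the nuclei with *Neurod* transcripts or with fewer than 5 *Gad* transcripts were left out.

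Receptors and guidance molecules differed in the same comparison, in which 4.46% of all genes tested rose and 4.14% fell. Of 18 glutamate receptor genes tested, 8 fell and none rose, with a median of -0.94 against -0.02 over all genes. These included *Grik1* (-4.25), *Gria4* (-4.14) and *Gria1* (-3.37), and *Gria1* stood at 438, 976, 1202 and 530 CPM against 6520 to 7662 CPM. Among 10 GABA-A receptor subunits, *Gabrb1* rose by 1.06 and 3 fell. Of 31 migration and guidance genes tested, 10 rose and 7 fell. *Sema3c*, a secreted semaphorin, rose by 2.76 and *Robo1*, a receptor of SLIT ligands, by 2.00, whereas the chemokine receptor genes *Ackr3* (-4.50) and *Cxcr4* (-3.67), which guide interneurons through the cortex, fell. *Ackr3* stood at 0, 3.54, 6.84 and 12.04 CPM against 85.8 to 153 CPM in MGE nuclei.

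Excitatory and progenitor genes were also higher than in MGE nuclei, in a comparison in which 4.46% of all genes tested rose. Of 11 excitatory genes tested, 9 rose and none fell, among them *Tbr1* (1.40), *Neurod6* (1.28) and *Neurod2* (1.21). The 12 genes of this list summed to 6734, 3859, 2458 and 6251 CPM in *Meis2*+ *Gad*+ nuclei and to 1289, 1257, 1227 and 1732 CPM in MGE nuclei, with none at 0. The sum was highest in the 2 libraries with the fewest *Meis2*+ *Gad*+ nuclei. With the 56 nuclei that had *Neurod* transcripts left out, the direction turned for these 3 genes, to -0.049 for *Tbr1*, -0.91 for *Neurod6* and -1.05 for *Neurod2*. Since this step removes nuclei by *Neurod2* and *Neurod6* themselves, their own new values follow from the choice. *Foxp1*, *Drd2*, *Six3*, *Meis1* and *Erbb4* kept their direction and call under that step and under every other alternative but that without TMM scaling, for which genes were only counted. Among 7 progenitor genes tested, *Gli3* (2.79), *Eomes* (2.27) and *Notch1* rose, and the 11 genes of that list summed to 1091 CPM in Dnmt1 KO replicate 1 and 249 to 464 CPM in the other libraries, against 76.7 to 129 CPM in MGE nuclei. In Dnmt1 KO replicate 1 *Slc1a3*, a glutamate transporter of radial glia, alone stood at 627 CPM and was found in 5 of the 9 nuclei. The 1 nucleus with *Six3* held it at 3776 CPM, so that a single nucleus carried part of that sum. Of the remaining lists, *Egfr* rose and *Npas1* fell among 6 CGE genes, *Calb1* fell among 3 olfactory bulb genes, *Reln* fell among 2 genes of Cajal-Retzius cells, and none of the 11 DNA methylation genes passed in either direction. No gene of the glia and non-neural list had enough counts for a test, and the list summed to 8.02 to 33.1 CPM in *Meis2*+ *Gad*+ nuclei, with *Olig2* and *C1qa* at 0.

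**Figure D4:**
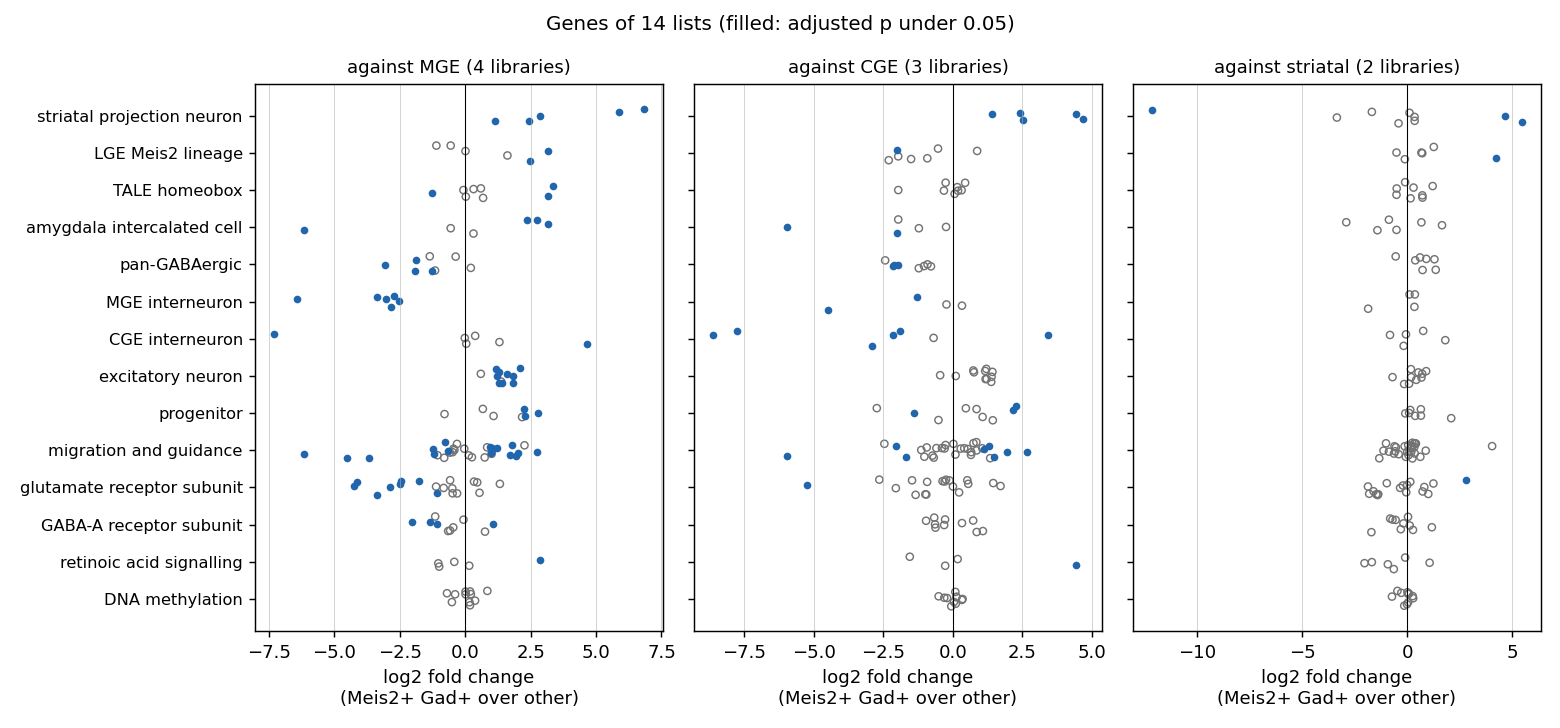
Log2 fold changes (x axis) of *Meis2*+ *Gad*+ nuclei over MGE, CGE and striatal nuclei (panels) for the tested genes of 14 lists (y axis), 1 point per gene, filled blue where the adjusted p of edgeR was under 0.05. The 5 of 13 striatal genes that had enough counts lie above 0 in the MGE and CGE panels, and in the striatal panel 2 of 9 are filled above 0 and 1, *Ikzf1* with no transcript in *Meis2*+ *Gad*+ nuclei, far below.

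Against CGE nuclei, Dnmt1 KO replicate 1 was left out for its 9 *Meis2*+ *Gad*+ nuclei, and in the other 3 libraries 90 genes rose (0.985% of the 9138 tested) and 140 fell (1.53%), 2.52% in all. *Drd2* stood at 166, 287 and 20.1 CPM in Dnmt1 KO replicate 2 and control replicates 1 and 2, whereas CGE nuclei held 6.24, 9.49 and 0.751 CPM (log2 fold change 4.69, SE 0.196, adjusted p = 0.00161, edgeR). *Rarb* stood at 309, 497 and 52.2 CPM, where CGE nuclei held 12.5, 16.8 and 5.25 CPM (log2 fold change 4.45, SE 0.274, adjusted p = 0.00292). In both genes the lowest *Meis2*+ *Gad*+ library, control replicate 2, was above the highest CGE library, but all 5 *Drd2* transcripts and 12 of the 13 *Rarb* transcripts of that library came from 1 of its 12 nuclei. *Six3* rose by 2.52, *Foxp1* by 2.41 and *Bcl11b* by 1.40, with the same *Meis2*+ *Gad*+ nuclei on one side as in the comparison with MGE nuclei. The other 8 striatal genes were not tested. The calls of *Six3*, *Foxp1* and *Bcl11b* were lost without Dnmt1 KO replicate 2 and without control replicate 1, which left 51 and 32 genes past the threshold in all, while 701 passed without control replicate 2.

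Genes of the CGE lineage were lower, but CGE nuclei were chosen by at least 5 *Adarb2* transcripts and *Meis2*+ *Gad*+ nuclei by at most 4, so that genes that accompany *Adarb2* cannot be told apart from this choice. Of 7 tested, *Prox1* (-2.92) and *Nr2f2* (-2.13), transcription factors of CGE interneurons, the cannabinoid receptor gene *Cnr1* (-1.88), *Npas1* and *Htr3a* fell, and *Egfr* rose by 3.41. Of all genes tested against CGE nuclei, 1.53% fell and 0.985% rose. *Htr3a*, a serotonin receptor subunit, had 0 transcripts in *Meis2*+ *Gad*+ nuclei and was at least 32.7-fold lower, against a floor of 3 transcripts over the 3 libraries. *Egfr* reversed to -0.73 with at least 5 *Gad* transcripts required. Among 8 GABAergic genes 3 fell, *Dlx1* (-2.12) and *Dlx2* (-2.14) among them, and *Tshz1*, a zinc finger factor of LGE derivatives, fell by 2.01, with 44.9, 67.3 and 64.2 CPM against 150 to 286 CPM. *Pbx3*, at 666, 932 and 128 CPM, was not above CGE nuclei, which held 1468 to 2170 CPM, and it did not pass the test. Other large decreases were those of *Cntnap5c* (-6.40), *Erbb4* (-5.96), *Grin2d* (-5.25), an NMDA receptor subunit, and *Reln* (-4.58), the secreted reelin. Large increases further included those of *Cdk6* (3.18), *Pde7b* (3.12), *Gucy1a1* (2.88) and *Slit3* (2.66), a ligand of ROBO receptors. Of the 33 genes followed against CGE nuclei, only 7 kept direction and call in every alternative. None of the 11 excitatory genes tested passed, although their median of 1.18 lay above that of all genes (-0.01).

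The last comparison asked whether *Meis2*+ *Gad*+ nuclei differed between Dnmt1 KO and control libraries. *Dnmt1* itself stood at 25.8 and 37.8 CPM in the Dnmt1 KO and 54.2 and 36.1 CPM in the control libraries (log2 difference -0.50, SE 0.454), so that the genotypes overlapped. As *Sst* had 0 transcripts in these nuclei and the Cre is driven by *Sst*, the level of *Dnmt1* is no check of the deletion here. No gene of 6391 passed the threshold (0%, edgeR), while an unadjusted p under 0.05 was reached by 100, and the DESeq2 alternative gave 1 gene, *Sned1*. In 30.9% of the genes tested, the 2 libraries of one genotype lay wholly above those of the other. Random orderings of 2 against 2 libraries separate them in a share of 0.333, so the 30.9% alone shows no difference. The smallest unadjusted p-values belonged to *Sned1*, *Megf11* and *Prkg1*. *Sned1* stood at 172 and 70.8 CPM in Dnmt1 KO against 1.58 and 4.01 CPM in control libraries (log2 difference 5.69, SE 0.800), and *Prkg1*, the cGMP-dependent protein kinase, at 163 and 151 CPM against 47.9 and 44.1 CPM (1.70, SE 0.328), both with an adjusted p of 1.00 in edgeR. *Drd2* was 0.73 lower and *Six3* 0.59 lower in Dnmt1 KO on the log2 scale, with standard errors of 1.29 and 0.866, and both signs turned without control replicate 1, to 2.18 and 1.24. No gene of any of the 17 lists passed. Within batch 1 alone 0 genes passed in edgeR. Without control replicate 1, 100 genes passed, on 12 control nuclei from the other batch.

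The genotype difference in these nuclei was set against that in MGE nuclei by an interaction term. Of 11040 genes 0 passed in edgeR (0%) and 0 in DESeq2, and 204 had an unadjusted p under 0.05. This count changed whenever 1 library was left out, to 12 without Dnmt1 KO replicate 1, 103 without Dnmt1 KO replicate 2, 46 without control replicate 1 and 7 without control replicate 2. The smallest p-values were those of *Samd4*, *Dach1* and *Creb5*, with interaction estimates of 2.80, 2.50 and 2.26 on the log2 scale. *Samd4* stood at 301, 90.9, 24.7 and 20.1 CPM in *Meis2*+ *Gad*+ nuclei and at 37.7, 28.8, 33.3 and 44.2 CPM in MGE nuclei, in the same order of libraries. Its highest value came from the 9 nuclei of Dnmt1 KO replicate 1.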

How the data were processed

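Nuclei of 2 Dnmt1 KO and 2 control libraries were barcoded by split-pool indexing (Parse Evercode). Reads were aligned to GRCm39 and counted in Trailmaker by the authors. The deposited values are raw counts of transcripts (unique molecular identifiers) for every barcode, before any filter. The processing notes list R 4.4.1 and Seurat 5.0.1.9001. Trailmaker version, annotation release and strand setting are not given in the sources used here. The study's range of 1500 to 60000, stated for reads, was applied to transcripts and alternatively to mapped reads. Scrublet (scanpy 1.11.5, expected rate 0.05) called 1, 7, 10 and 1 of the *Meis2*+ *Gad*+ nuclei as doublets, and these were kept.

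Counts were summed per library and population, since nuclei are not replicates. Sums were tested with edgeR 4.0.16 (R 4.3.3, quasi-likelihood, TMM, filterByExpr, Benjamini-Hochberg over all genes tested, threshold 0.05), with the library as a block between populations and group alone between genotypes. Libraries with fewer than 10 nuclei of either population were left out of the striatal and CGE comparisons. The 9 genes of the rule were not tested. DESeq2 1.42.0 was an alternative. CPM scale each sum to the same total. The nuclei and the 17 gene lists were chosen with earlier results of these data known. *Nrg1*, whose symbol occurs more than once, was left out, and some genes that meet the naming rule are not reported here. Other genes named are the 10 largest changes per direction past the threshold with 1 sign in every library and at least 50 CPM in the higher population, or the 3 smallest p-values where none passed. A split by *Sp8* was not run, as no library had 10 *Sp8*+ nuclei. Fits were tested on simulated counts. The labels do not say that replicates are separate litters, so p-values between genotypes measure the spread between these libraries. Those between populations measure how the difference within a library varies over these libraries. Intervals and floors of 3 transcripts cover counting error only.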

Additional observations from a re-analysis of the deposited data

Results flagged for a closer look

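Barcodes above 60000 transcripts were outside all comparisons, and 4 of these 718 barcodes met the gene rule of the *Meis2*+ *Gad*+ nuclei, 1 in control replicate 1 and 3 in control replicate 2. They drew attention because they lie in data that the comparisons did not use, and they were not added to the 278 nuclei. Barcodes above the limit numbered 188 in control replicate 1 and 429 in control replicate 2. Among retained nuclei, 278 of 29656 met the rule, and a difference between these rates was not tested.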

How the results depend on the processing

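The share of *Meis2*+ *Gad*+ nuclei differed by -2.19 to 0.146 points when 1 library was left out, with the sign turned without control replicate 1, and by -0.798 to -1.08 points under the other rules for nuclei. As a share of non-cycling *Gad*+ nuclei it was -4.77 points. With the replicate number as a block it was -1.02 (exact sign flips, p = 1.00, smallest possible 0.5). The block gave 0 genes between the genotypes. The numbers share only a label, and the deviations of same-numbered libraries correlated at -0.13. Between genotypes, leaving out 1 library gave 0 to 100 genes (100 without control replicate 1), no low-count filter 50 and DESeq2 1. *Drd2* ranged from -9.96 to 2.18 and *Six3* from -2.95 to 1.24, the highest values being those without control replicate 1, and -9.96 came from a Dnmt1 KO library with no *Drd2* transcript, so that its size depends on the fit.

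Against MGE nuclei 854 genes were called, with 446 to 893 when 1 library was left out (446 without Dnmt1 KO replicate 2, 450 without control replicate 1) and 1439 with no low-count filter. Of 47 genes followed there, 35 kept direction and call in every alternative. *Neurod2*, *Neurod6* and *Tbr1* turned to -1.05, -0.91 and -0.049 with the *Neurod* nuclei left out, and *Tbr1* to -0.11 with at least 5 *Gad* transcripts. That rule was chosen after seeing the data, as were the fits without TMM, with 2 libraries and with all 4 libraries for striatal nuclei.

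Against striatal nuclei the 21 calls rest on 2 libraries, and fits without either could not be made, so the range is 21 to 21. The count was 0 with doublets left out, 0 without the library block, 2 with all 4 libraries, 33 with thinning, 38 and 95 with *Meis2* limits of 3 and 8, 82 without TMM, 101 with DESeq2, 132 with at least 5 *Gad* transcripts, 153 with the range on reads, 177 with *Neurod* nuclei left out and 667 with no low-count filter. None of the 19 named calls was kept in every alternative. Against CGE nuclei 230 genes were called, with 32 to 701 when 1 library was left out, 382 with thinning, 418 with the range on reads, 513 with *Neurod* nuclei left out, 592 with at least 5 *Gad* transcripts, 701 with only Dnmt1 KO replicate 2 and control replicate 1, and 913 with no low-count filter. Of 33 genes followed, 7 kept their call in every alternative, and *Egfr* and *Sema3c* turned to -0.73 and -0.38 with at least 5 *Gad* transcripts. The interaction gave 7 to 103 genes with 1 library left out, 2 with *Neurod* nuclei left out, 7 with the range on reads, 17 with no low-count filter and 2 with at least 5 *Gad* transcripts. The causes were not tested. The depth limits most the libraries with 9 and 12 nuclei, where 3 transcripts correspond to 25.8 and 12.04 CPM.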

Other observations

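The 12 *Meis2*+ *Gad*+ nuclei with an *Sp8* transcript are described here as counts, since they were too few for a test. *Meis1* was detected in all 12 (73.7% of all 278 nuclei), *Sp9* in 8 (43.5%), and *Drd2* and *Six3* in 4 each (35.3% and 34.5%). *Rarb* and *Isl1* were detected in 0 of the 12, where 29.5% and 9.71% of all 278 nuclei had them, and so few nuclei leave these counts imprecise. Their median *Gad* count was 19 transcripts and their median depth 7940 transcripts, and 1 of the 12 had at least 2 *Neurod2* and *Neurod6* transcripts.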
